A study of Mus musculus with 6 samples.

Results

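The genes described here are 8 carboxylesterases of mouse families Ces1 and Ces2, namely Ces1d, Ces1e, Ces1f, Ces1g, Ces2a, Ces2b, Ces2c and Ces2e. They were taken by name from a table of counts for 55401 genes, and they are 8 of the 20 carboxylesterase genes of families 1 to 5 in it. They were chosen by their counts in these same DKD and Control libraries, so their differences between the groups are given as a description and support no test. Of the 8 genes, 7 passed the filter on low counts and Ces2a did not.

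RNA was measured by sequencing of polyadenylated RNA from mouse glomeruli, the capillary tufts of the kidney filter. The libraries were 3 from mice labelled DKD, for diabetic kidney disease, and 3 from mice labelled Control. The labels give DKD and Control as genotypes, and they do not give the strain, the age, the alleles or how the disease was brought about. They do not say that each library came from a separate animal, so errors and p-values speak only of library to library variation, which may be technical.

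Carboxylesterases are serine hydrolases of the endoplasmic reticulum that split ester, amide and thioester bonds in fats, drugs and other foreign compounds. In mice the genes are arrayed in tandem on a single chromosome, and the enzymes are best known from liver, gut and fat, where several of them take part in the turnover of stored triacylglycerol. In the kidney, carboxylesterases are known mainly from the proximal tubule, which takes up most of what the glomerulus filters.

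All 8 genes lie on chromosome 8, with the 4 Ces1 genes on the minus strand and the 4 Ces2 genes on the plus strand. Coding sequences of the Ces1 genes were 75.6 to 81.8% identical to each other, and those of the Ces2 genes were 83.0 to 92.1% identical. Between the families identity was 64.6 to 67.4%. RefSeq on build GRCm38.p6 gave an upstream sequence for 5 of the 8 genes, and the 250 bases before the start are shown for 4 of them. Ces1e and Ces1g are shown because both were lower in every DKD library than in every Control library, and Ces2c and Ces2e because neither was. The windows are chr8:93229620-93229869 on the minus strand for Ces1e and chr8:93337210-93337459 on the minus strand for Ces1g. They are chr8:104846818-104847067 on the plus strand for Ces2c and chr8:104926010-104926259 on the plus strand for Ces2e. Each is read 5′ to 3′ towards the gene. Capitals mark the letters TTATGTAA in the Ces1 windows and GAACTTTGCC, which is GGCAAAGTTC on the other strand, in the Ces2e window.
Ces1e: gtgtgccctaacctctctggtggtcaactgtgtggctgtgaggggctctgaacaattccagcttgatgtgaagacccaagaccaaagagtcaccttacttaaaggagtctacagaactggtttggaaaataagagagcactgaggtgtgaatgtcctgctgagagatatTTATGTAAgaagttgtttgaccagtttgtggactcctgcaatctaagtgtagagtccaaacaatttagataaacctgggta
Ces1g: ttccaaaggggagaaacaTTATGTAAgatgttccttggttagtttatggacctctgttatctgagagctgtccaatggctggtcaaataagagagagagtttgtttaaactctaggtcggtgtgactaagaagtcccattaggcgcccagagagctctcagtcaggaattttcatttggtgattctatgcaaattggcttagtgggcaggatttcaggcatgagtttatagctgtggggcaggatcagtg
Ces2c: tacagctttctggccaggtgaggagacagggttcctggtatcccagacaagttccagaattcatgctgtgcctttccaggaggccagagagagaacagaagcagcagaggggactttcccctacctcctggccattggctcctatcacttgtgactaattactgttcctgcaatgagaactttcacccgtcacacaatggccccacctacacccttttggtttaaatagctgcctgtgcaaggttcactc
Ces2e: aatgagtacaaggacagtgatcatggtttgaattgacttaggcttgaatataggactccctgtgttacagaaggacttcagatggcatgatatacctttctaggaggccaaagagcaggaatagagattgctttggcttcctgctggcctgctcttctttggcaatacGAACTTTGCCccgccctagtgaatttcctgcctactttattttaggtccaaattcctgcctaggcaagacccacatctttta

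The letters TTATGTAA are a D-box, the element read by the clock output factors Dbp, Tef and Hlf and by the repressor Nfil3. They stood 81 to 74 bases before the start of Ces1e and 232 to 225 bases before that of Ces1g. Searched on both strands, they occurred in 5 of 16 carboxylesterase windows, those of Ces1a, Ces1b, Ces1c, Ces1e and Ces1g, and in 0.819% of all 32851 windows of the same length. Of these genes, Ces1a and Ces1c had log2 fold changes of 1.62 and 1.54, on few counts and without a call. Ces1b was not tested, so whether the letters go with lower levels cannot be read from Ces1a, Ces1b and Ces1c. The letters GGCAAAGTTC resemble the direct repeat that Hnf4a and Rxra read. They were copied from the Ces2e window, so the match there was fixed in advance. They also occurred in the Ces2a window, and in 0.0426% of all windows. The carboxylesterase genes are related copies, so matches in their windows, those of the D-box included, are not independent of each other. AGGTCA, a nuclear receptor half-site, occurred in the Ces2a window alone among the members and in 14.02% of all windows. GTTAAT, a half-site of Hnf1 factors, was in 6.43% of all windows and TGACNNNGC, the core of the antioxidant response element, in 10.2%. Neither of these was in a member's window. The D-box and GGCAAAGTTC were chosen after the sequences had been read, no 2 matches in a member overlapped, and a match is a run of letters and not a shown binding site.

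The libraries held 71154026 to 75328417 counts in the DKD group and 72451052 to 83576494 in the Control group. Levels are given in CPM, for which each count was divided by the library total after correction by TMM factors. Podocyte markers, which define the glomerular filter cell, were detected in every library, with 12 markers summing to 435, 460 and 578 CPM in DKD and 834, 699 and 623 CPM in Control. Of these 12, 11 had a negative fold change and 0 were past the test threshold by edgeR (7 at an unadjusted p under 0.05, where 22.6% of all genes tested were). The 7 endothelial markers summed to 162, 269 and 243 CPM in DKD and 420, 364 and 286 CPM in Control, with 0 past it (4 unadjusted). Of 5 mesangial markers, 1 was past it, Agtr1a, lower in DKD (log2 fold change -1.07 ± 0.16, edgeR adjusted p = 0.0360). Markers of the proximal tubule were also present. The 35 markers were above 0 in every library and summed to 44775, 42176 and 34957 CPM in DKD and 39184, 41866 and 77186 CPM in Control. On that measure Control replicate 3 stood apart. In a test of 19717 genes by edgeR's quasi-likelihood fit, in which an adjusted p (Benjamini-Hochberg) had to be under 0.05, 228 differed between the groups, 143 higher and 85 lower in DKD.

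Ces1g was the member with the widest gap between the groups. Its product, also known as esterase-x, is known from mouse liver as a brake on fat synthesis and lipoprotein output. Ces1g (ENSMUSG00000057074) measured 3.51, 2.24 and 1.35 CPM in the DKD libraries and 65.1, 83.7 and 48.5 CPM in the Control libraries. The raw counts behind these were 235, 162 and 96 in DKD and 5440, 6775 and 3672 in Control. The lowest Control library lay well above the highest DKD library, so the groups did not overlap. The means were 2.37 ± 1.09 CPM in DKD and 65.8 ± 17.6 CPM in Control (SD, n = 3 each), which is 27.8-fold lower in DKD, with a log2 fold change of -4.80 ± 0.39 (SE). Among all 19717 genes tested, the fold change was the 13th lowest and the p the 5th smallest. Ces1g was the 1 member past the adjusted threshold, where 1.16% of all genes tested were past it in either direction, 0.431% were past it and lower, and 0.725% were past it and higher. It was not past it without Control replicate 1, where the log2 fold change was -4.81 and 0.00493% of all genes were called. Across the other ways of fitting the counts the log2 fold change stayed between -5.19 and -4.52.

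Ces1e showed the next widest gap. Its product is egasyn, the esterase that holds beta-glucuronidase in the endoplasmic reticulum of mouse liver and kidney. Ces1e (ENSMUSG00000061959) measured 36.9, 29.9 and 22.9 CPM in DKD and 69.5, 74.98 and 139 CPM in Control. The groups did not overlap, and Control replicate 3 was the highest library. The means were 29.9 ± 7.02 CPM in DKD and 94.3 ± 38.4 CPM in Control (SD, n = 3 each), a log2 fold change of -1.66 ± 0.30 (SE). It missed the adjusted threshold with all 6 libraries and was past it without Control replicate 3, with a log2 fold change of -1.27, where 1.88% of all genes were called. By DESeq2 both Ces1e and Ces1g were called, where 13.7% of all genes were. At an unadjusted p under 0.05, 22.6% of all genes were called by edgeR, Ces1e and Ces1g among them. Ces1e and Ces1g were thus the 2 members whose DKD libraries all lay below all Control libraries, where 15.2% of all genes tested had groups apart in that direction. No member had groups apart in the other direction, where the share over all genes was 15.5%.

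Ces1d and Ces1f, the other Ces1 members, had overlapping groups. Ces1d encodes the enzyme known in mouse liver as triacylglycerol hydrolase, which frees stored fat for very low density lipoprotein, and Ces1f encodes a close relative that acts on the same kind of store. Ces1d (ENSMUSG00000056973) measured 414, 295 and 291 CPM in DKD and 284, 304 and 484 CPM in Control. The highest library was Control replicate 3 and the next was DKD replicate 1, so the groups were interleaved. The Ces1d log2 fold change was -0.10 ± 0.25 (SE), and it was 0.18 without Control replicate 3. Ces1f (ENSMUSG00000031725) measured 508, 468 and 382 CPM in DKD and 449, 527 and 1116 CPM in Control. Its log2 fold change was -0.62 ± 0.35 (SE), and -0.11 without Control replicate 3. The means were 453 ± 64.2 CPM in DKD and 697 ± 364 CPM in Control (SD, n = 3 each), with 2 of the 3 Control libraries close to the DKD range.

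**Figure D1:**
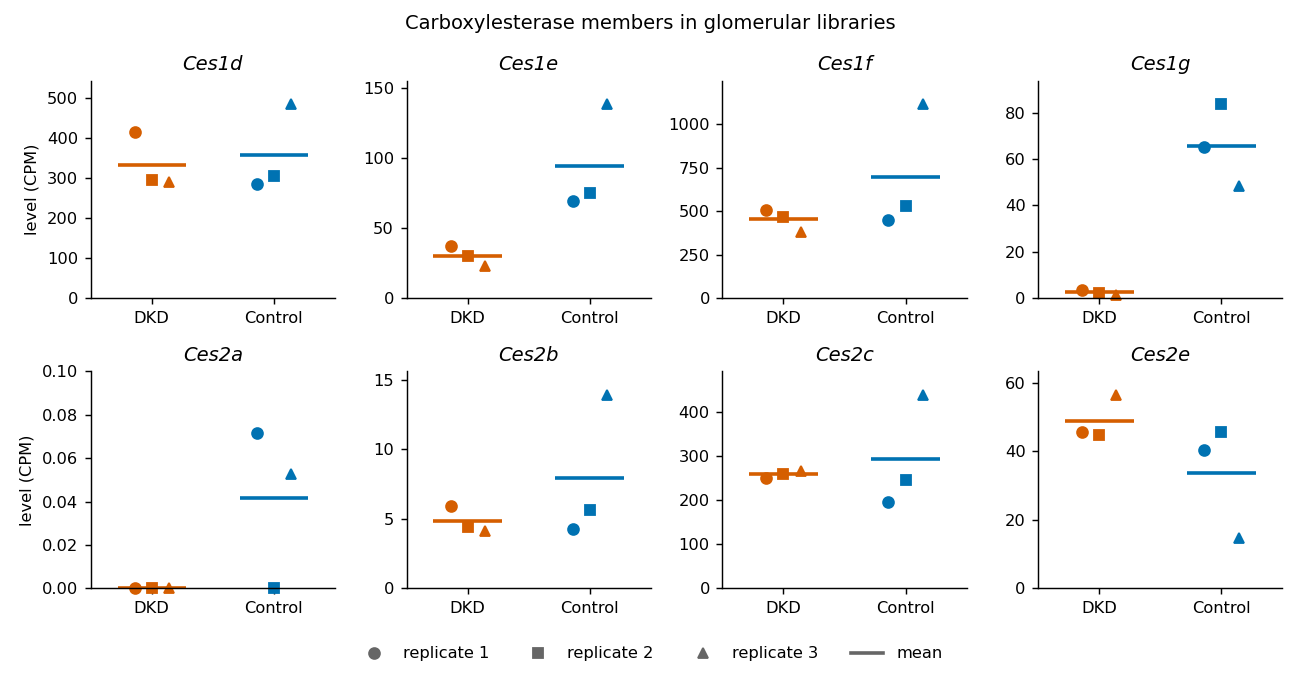
Level of each member in CPM (linear axes from 0, a scale per gene) in the 3 DKD and 3 Control libraries, with symbols for the replicate and a line for the group mean. The DKD points of Ces1g lie between 1.35 and 3.51 CPM and those of Ces1e between 22.9 and 36.9 CPM, all below the Control points, while the other members overlap and Ces2a is at or near 0.

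Of the Ces2 members, Ces2c was the most abundant per kilobase of exon, and its product is known as an acylcarnitine hydrolase that also acts on acylglycerols in mouse liver. Ces2c (ENSMUSG00000061825) measured 251, 259 and 266 CPM in DKD and 195, 246 and 440 CPM in Control. The DKD libraries were close together and lay inside the Control range. Its log2 fold change was -0.18 ± 0.29 (SE), and 0.23 without Control replicate 3. Ces2b (ENSMUSG00000050097) was scarce, at 5.93, 4.43 and 4.16 CPM in DKD and 4.29, 5.63 and 13.9 CPM in Control. Its log2 fold change was -0.72 ± 0.44 (SE), and -0.04 without Control replicate 3, and the 2 other Control libraries lay within the DKD range.

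Ces2e was the 1 tested member with a positive fold change. Its product is known as a pyrethroid hydrolase, after the insecticides it splits. Ces2e (ENSMUSG00000031886) measured 45.6, 44.8 and 56.6 CPM in DKD and 40.4, 45.6 and 14.7 CPM in Control. Control replicate 3, the highest library for 5 of the 7 tested members, was the lowest for Ces2e. The log2 fold change was 0.55 ± 0.38 (SE) with overlapping groups, and 0.19 without that library. Ces2a (ENSMUSG00000055730), which encodes a further hydrolase of pyrethroids and acylglycerols, had 0 counts in each DKD library and 6, 0 and 4 counts in the Control libraries. A count of 0 allows up to 3 counts, or 0.0416 to 0.0448 CPM in these DKD libraries, and no difference was detectable at this depth. Such limits cover counting error only.

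Levels of different members can be compared only per length of exon, and on that scale 3 members held most of the signal. In DKD, Ces1d had 141 ± 29.5, Ces1f 138 ± 19.6 and Ces2c 113 ± 3.20 CPM per kilobase (SD, n = 3). The ranges of 1 SD around Ces1d and the other 2 overlapped. Ces2e followed with 18.2 ± 2.43 and Ces1e with 13.7 ± 3.21 CPM per kilobase, then Ces2b with 1.42 ± 0.279 and Ces1g with 0.991 ± 0.456. In Control the order began with Ces1f at 212 ± 111, Ces1d at 151 ± 46.6 and Ces2c at 128 ± 56.1 CPM per kilobase (SD, n = 3), neighbours whose ranges of 1 SD overlapped. The lower places differed: Ces1e came next at 43.1 ± 17.5 and Ces1g at 27.5 ± 7.37, ahead of Ces2e at 12.4 ± 6.11 and Ces2b at 2.33 ± 1.53. In Control the ranges of 1 SD around Ces1e and Ces1g overlapped, as did those around Ces2e and Ces1e in DKD and those around Ces2b and Ces1g in DKD. Within each DKD library Ces2e was nevertheless above Ces1e and Ces2b above Ces1g. Ces1g was ahead of Ces2e and Ces2b in Control and behind both in DKD.

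As a share of the members' summed CPM per kilobase, Ces1g made up 0.309, 0.228 and 0.145% in DKD and 6.54, 7.24 and 2.45% in Control. Ces1e made up 3.55, 3.32 and 2.69% in DKD and 7.62, 7.08 and 7.64% in Control. The Ces1e share varied little within a group, although its level in Control replicate 3 was the highest of all. Ces1d, Ces1f and Ces2c together made up 92.2, 92.1 and 91.4% in DKD and 81.9, 81.8 and 88.8% in Control. Ces2e made up 3.55, 4.03 and 5.40% in DKD and 3.59, 3.49 and 0.659% in Control, so its share set Control replicate 3 apart and not the groups. Shares of 1 whole move against each other by construction, so ratios of pairs were also taken. Per kilobase, Ces1g was 0.951, 0.659 and 0.485% of Ces1f in DKD and 19.9, 21.8 and 5.98% of Ces1f in Control. Ces1e was 10.9, 9.59 and 8.99% of Ces1f in DKD and 23.2, 21.3 and 18.6% of Ces1f in Control. Both ratios were lower in every DKD library than in every Control library. The levels of Ces1g and Ces1e were already apart, and the share of all genes apart as a ratio to Ces1f was not computed. Against its own family, Ces2e was 15.5, 14.7 and 18.1% of Ces2c in DKD and 17.6, 15.8 and 2.86% of Ces2c in Control, with the groups overlapping.

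**Figure D2:**
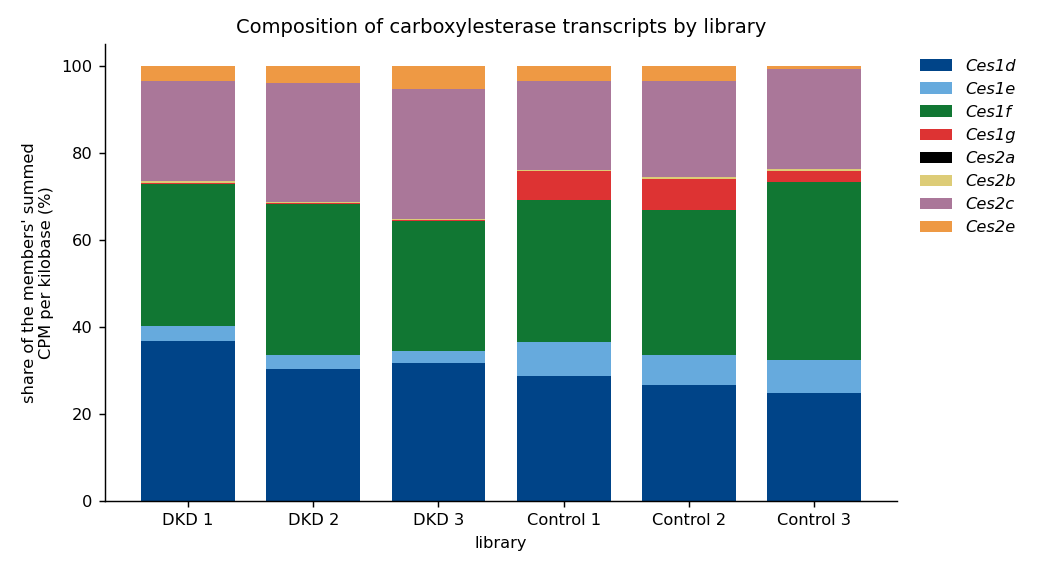
Share of each member in the members' summed CPM per kilobase of exon, in percent, with a stacked bar for each DKD and Control library. The Ces1g band is 0.145 to 0.309% in the DKD libraries and 2.45 to 7.24% in the Control libraries, and the Ces2e band is thinnest, at 0.659%, in Control replicate 3.

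All 8 members together held 0.115, 0.112 and 0.0970% of the counts in DKD and 0.125, 0.144 and 0.204% in Control. The 4 Ces1 genes held 0.0877, 0.0807 and 0.0660% in DKD and 0.0977, 0.111 and 0.162% in Control. The 4 Ces2 genes held 0.0276, 0.0313 and 0.0309% in DKD and 0.0270, 0.0332 and 0.0424% in Control. As shares of all counts, the summed Ces1 genes did not overlap between the groups and the summed Ces2 genes did. The Ces1 sum holds Ces1e and Ces1g, so it does not speak for each Ces1 gene. The share of all genes with groups apart on this scale was not computed. With library totals the median log2 fold change over all genes tested was -0.13. With TMM scaling the 8 members summed to 1265, 1104 and 1024 CPM in DKD and 1107, 1288 and 2255 CPM in Control, and these sums overlapped. The proximal tubule markers held 4.08, 4.28 and 3.31% of the counts in DKD and 4.41, 4.68 and 6.99% in Control, so on this measure they too were lower in every DKD library, although their sums in CPM overlapped. With mitochondrially encoded genes left out, the markers held 5.02, 5.05 and 4.06% in DKD and 5.00, 5.23 and 7.96% in Control, and the groups overlapped. The members' share overlapped on that measure too. In whole glomeruli, fewer cells of a type and less RNA per cell cannot be told apart.

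Of those 35 markers, 30 had a negative fold change and 4 were past the adjusted threshold, all lower in DKD, with a median log2 fold change of -0.64 against 0.00 over all genes tested. The 4 were the transporters Slc5a12 (-2.56 ± 0.24, adjusted p = 0.0192), Slc6a19 (-1.68 ± 0.22, adjusted p = 0.0264), Slc7a8 (-1.12 ± 0.16, adjusted p = 0.0328) and Slc5a2 (-1.82 ± 0.30, adjusted p = 0.0445), as log2 fold change with SE by edgeR. Of the 5 with a positive fold change, 2 had groups apart, Pck1 (2.21 ± 0.42) and Slc5a1 (0.73 ± 0.13), neither past the threshold. Pck1 measured 6114, 4508 and 7438 CPM in DKD and 841, 927 and 2135 CPM in Control. The marker sums and mean hold these genes too. To set the members beside the 35 markers, their mean log2 CPM was subtracted from the log2 CPM of each member in the same library. On this scale Ces1g stood at -7.01, -7.62 and -7.84 in DKD and -2.97, -2.62 and -4.12 in Control, a difference of -4.25. Ces1e stood at -3.62, -3.90 and -3.78 in DKD and -2.87, -2.77 and -2.61 in Control, a difference of -1.01. Both genes were lower in every DKD library on this scale, where 1.55% of all genes tested had groups apart in that direction. The marker mean itself was 8.64 in DKD and 9.24 in Control, so the median gene stood 0.61 higher in DKD on this scale.

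The other members took different places on this marker scale. Ces1f and Ces2b differed by 0.08 and 0.06 with the groups overlapping. Ces1d, Ces2c and Ces2e were higher in every DKD library than in every Control library, by 0.52, 0.50 and 1.29, where 41.6% of all genes tested had groups apart in that direction. The differences of Ces1d and Ces2c were thus below that of the median gene, and that of Ces2e was above it. The marker mean was 8.831, 8.801 and 8.295 in DKD and 8.991, 9.003 and 9.725 in Control, so its groups did not overlap. A fit that holds it as a covariate therefore cannot tell marker level from group. In that fit the log2 fold change was -4.80 for Ces1g and -0.88 for Ces1e. The sign turned for the others, to 0.44 for Ces1d, 0.28 for Ces1f, 0.41 for Ces2b and 0.42 for Ces2c, and to -0.26 for Ces2e, none of them past the threshold. The part that tubule content has in these differences was not tested beyond these values.

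**Figure D3:**
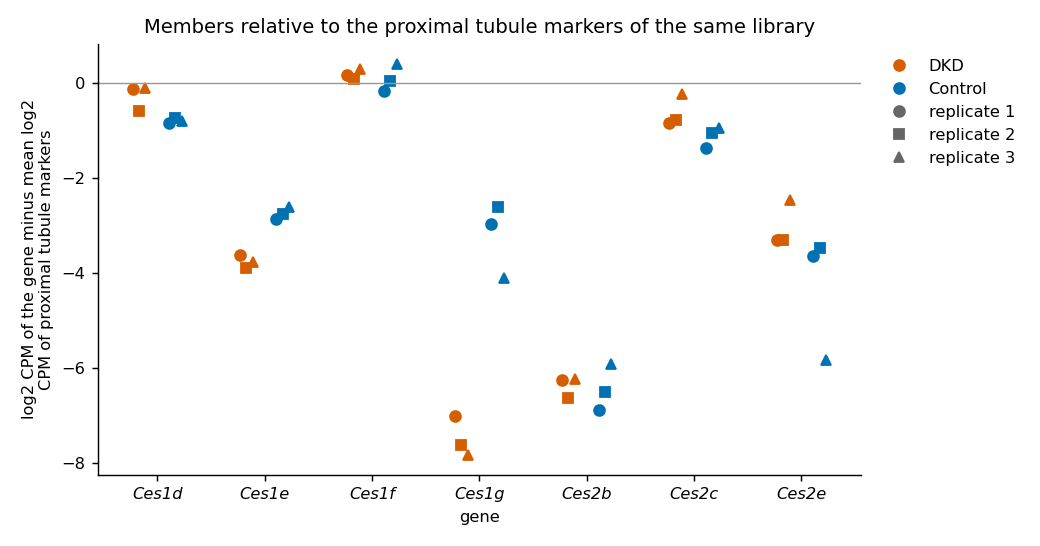
Log2 CPM of each tested member minus the mean log2 CPM of 35 proximal tubule markers in the same library (y axis, log2 units), for 3 DKD and 3 Control libraries per gene. Ces1g lies at -7.84 to -7.01 in DKD and -4.12 to -2.62 in Control, and Ces2e in Control replicate 3 lies at -5.84.

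Carboxylesterases are also made in fat and liver, so markers of adipocytes and hepatocytes were read in the same libraries. The 8 adipocyte markers summed to 5.44, 6.43 and 174 CPM in DKD and 156, 96.9 and 38.3 CPM in Control. The number of these 8 at 0 was 6, 5 and 0 in DKD and 0, 0 and 6 in Control, with Adipoq, Cfd, Retn, Lep and Adrb3 at 0 in DKD replicates 1 and 2 and in Control replicate 3. Car3 differed from these, at 4.47, 5.55 and 27.5 CPM in DKD and 83.8, 41.8 and 38.2 CPM in Control, and made up nearly all of the sum in Control replicate 3. None of the 8 was past the threshold by edgeR (1 at an unadjusted p under 0.05). Groups were apart for 1 of them, Car3, and for 30.7% of all genes tested. The part of these 8 in the carboxylesterase levels was not tested. The 12 hepatocyte markers summed to 783, 607 and 983 CPM in DKD and 404, 447 and 315 CPM in Control, and of the 10 tested, 8 had a positive fold change, with a median log2 fold change of 1.86. In 5 of them all DKD libraries lay above all Control libraries, as in 15.5% of all genes tested. Apoc3 was the 1 past the threshold, higher in DKD (log2 fold change 2.29 ± 0.34, edgeR adjusted p = 0.0370). Alb was at 10.6, 7.49 and 7.60 CPM in DKD and 8.503, 8.36 and 8.48 CPM in Control, and Cps1 was at 0 in every DKD library and at 0.0957 to 0.222 CPM in Control. The part of these markers in the results was not tested.

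The 12 other carboxylesterase genes showed no call in either direction by edgeR, and none of the 7 that were tested had an unadjusted p under 0.05 or groups apart. DESeq2 called none of them either. The most abundant was Ces2d-ps, a pseudogene beside Ces2c, at 82.5, 71.2 and 84.1 CPM in DKD and 58.1, 54.4 and 99.5 CPM in Control, with a log2 fold change of 0.17 ± 0.24. Ces2g measured 6.81, 4.49 and 7.67 CPM in DKD and 7.21, 6.21 and 6.42 CPM in Control (log2 fold change -0.07 ± 0.24). Ces2h had -1.31 ± 0.69 and Ces2f -0.61 ± 0.76, and Ces1c had 1.54 ± 1.09, Ces1a 1.62 ± 1.64 and Ces3a 0.60 ± 1.56, each as log2 fold change with SE. Ces1a, Ces1c, Ces2f and Ces3a stayed under 1 CPM in every library, so their folds rest on few counts. Ces3b and Ces5a had 0 counts in every library.

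**Figure D4:**
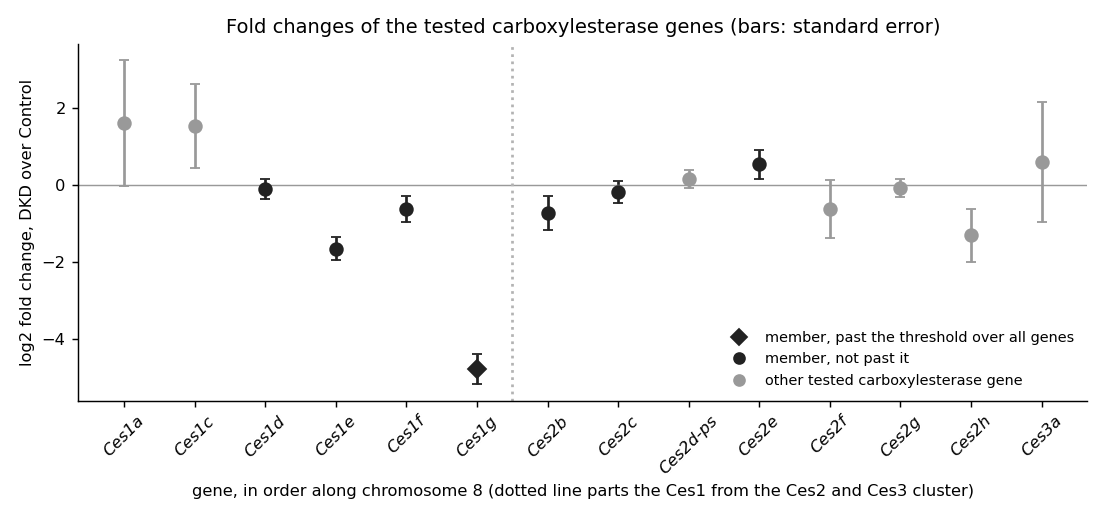
Log2 fold change, DKD over Control, with its standard error, for the 14 tested carboxylesterase genes in their order along chromosome 8. The point for Ces1g, at -4.80, is the 1 point past the threshold over all genes, and bars are widest for the genes with the fewest counts, such as Ces1a at 1.62 ± 1.64.

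Copies of these genes share sequence, which bears on how reads were shared out. Of the 31-base words of each member's exons, 3.63 to 8.09% were found in another gene for the 4 Ces1 members and 8.68% for Ces2e. Ces1g shared 2.63% with Ces1e and 1.99% with Ces1d. Most words of the Ces1 members and of Ces2e were thus found in no other gene, but shares of words are not shares of reads. In DKD, Ces1g had 235, 162 and 96 counts beside 27715, 21314 and 20739 for Ces1d. Whether reads of one were counted for the other was not tested. Ces2c shared 50.1% of its words, including 42.9% with Ces2d-ps and 24.7% with the pseudogene Gm8798, so its counts are uncertain. With the counts of Ces2c and Ces2d-ps added together, the log2 fold change was -0.11. Gm8798 had 230, 382 and 462 counts in DKD and 106, 276 and 182 in Control. Ces2a shared 30.2% of its words, including 24.7% with Gm7208, which had 0 counts in every library. Ces2b shared 26.2%, with 11.95% of its words found in other carboxylesterases. The counts of both are uncertain too, though the genes they share words with differ from those of Ces2c in kind or in counts.

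Of 20 factors known from liver to act on carboxylesterase genes, or their partners, 2 were past the threshold, 1 in each direction, with a median log2 fold change of 0.05 over the list and 0.00 over all genes tested. Over all genes 1.16% were past it. At an unadjusted p under 0.05 by edgeR there were 11 of the 20, and 22.6% of all genes. Groups were apart for 6 higher and 6 lower in DKD, where the shares over all genes were 15.5 and 15.2%. Cebpb, a leucine zipper factor of the acute phase response, measured 74.0, 61.9 and 99.0 CPM in DKD and 25.7, 29.7 and 21.1 CPM in Control. It rose in DKD by a log2 fold change of 1.62 ± 0.21 (edgeR, adjusted p = 0.0263). Nr3c1, the glucocorticoid receptor, measured 44.9, 51.9 and 44.2 CPM in DKD and 80.2, 79.0 and 90.7 CPM in Control. It fell in DKD, with a log2 fold change of -0.83 ± 0.12 (edgeR, adjusted p = 0.0328). The groups of both genes were apart, and neither was past the threshold without DKD replicate 1, DKD replicate 3, Control replicate 1 or Control replicate 2, or with the tubule marker covariate.

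The readers of the D-box were among the other factors and did not pass the edgeR test as reported. They are named here because of the letters in the Ces1e and Ces1g windows, a choice made after their values were seen. Nfil3, the repressor, measured 24.4, 20.9 and 19.6 CPM in DKD and 4.90, 6.34 and 10.4 CPM in Control (log2 fold change 1.59 ± 0.28, edgeR adjusted p = 0.0511). Dbp, an activator, measured 30.97, 40.0 and 23.2 CPM in DKD and 52.5, 72.1 and 124 CPM in Control (-1.40 ± 0.34, edgeR adjusted p = 0.0803). Groups were apart for both, higher in DKD for Nfil3 and lower in DKD for Dbp. Tef, an activator, measured 187, 202 and 122 CPM in DKD and 206, 237 and 399 CPM in Control (-0.72 ± 0.30, edgeR adjusted p = 0.206). Hlf, an activator, measured 102, 102 and 51.5 CPM in DKD and 87.1, 88.1 and 153 CPM in Control (-0.36 ± 0.32, edgeR adjusted p = 0.559). The groups were apart for Tef and overlapped for Hlf. Nfil3 was past the threshold without Control replicate 3 and, with all 6 libraries, by DESeq2, limma-voom, the filter of at least 1 CPM, library totals, upper quartile factors and the fit with the tubule marker covariate. Dbp was past it by DESeq2. Whether these factors act on Ces1e or Ces1g in these samples was not tested.

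Among 27 other lipid hydrolases, esterases and their partners, 25 were tested and 2 were past the threshold, both higher in DKD, and the median log2 fold change was 0.09. Mgll, which splits monoacylglycerols, measured 72.7, 72.9 and 90.3 CPM in DKD and 48.8, 42.6 and 36.6 CPM in Control. It rose by a log2 fold change of 0.88 ± 0.15 (edgeR, adjusted p = 0.0477). Ache, which encodes acetylcholinesterase, of the same protein fold as the carboxylesterases, measured 16.7, 17.2 and 11.7 CPM in DKD and 6.65, 7.05 and 6.38 CPM in Control. It rose by a log2 fold change of 1.18 ± 0.19 (edgeR, adjusted p = 0.0405). Neither was past the threshold when any 1 library was left out or with the tubule marker covariate. In 8 of the 25 genes the DKD libraries lay above all Control libraries, and in 3 they lay below, where the shares over all genes were 15.5 and 15.2%.

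**Figure D5:**
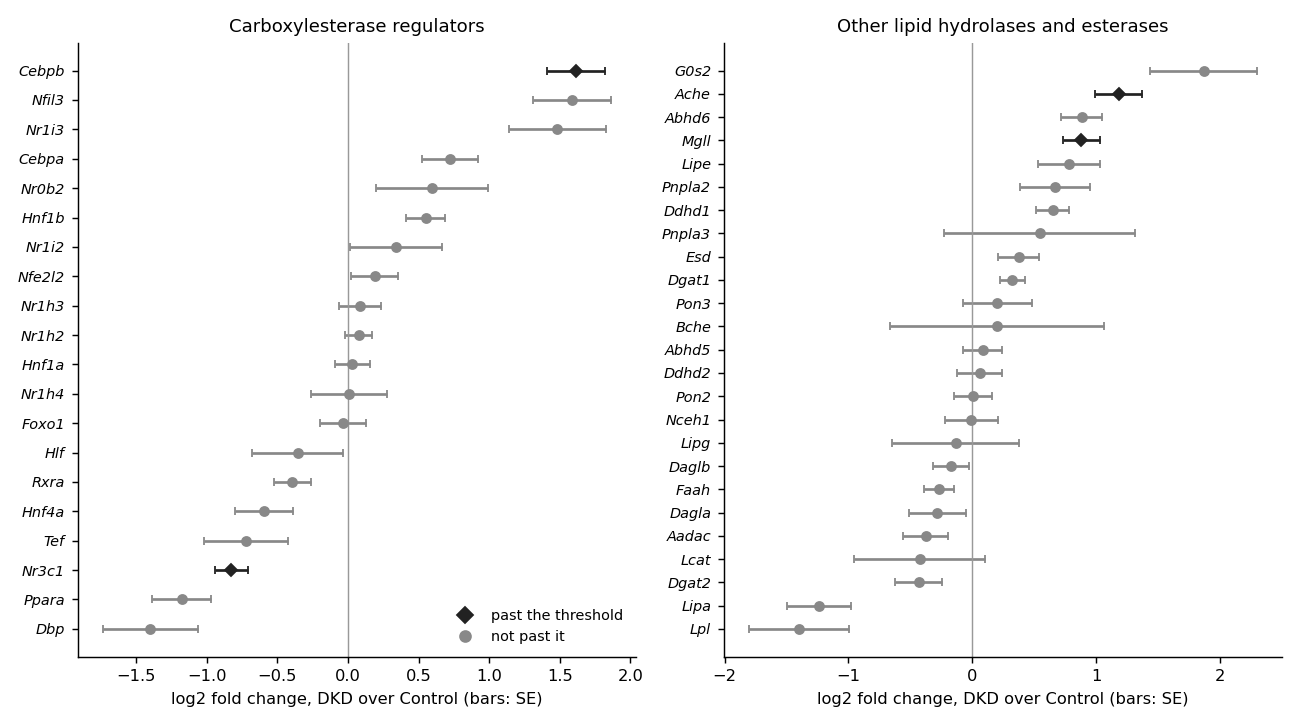
Log2 fold change, DKD over Control, with its standard error, for 20 factors known from liver to act on carboxylesterase genes, or their partners (left), and for 25 other lipid hydrolases, esterases and their partners (right). Diamonds mark the genes past the adjusted threshold, which are Cebpb at 1.62 and Nr3c1 at -0.83 on the left and Ache at 1.18 and Mgll at 0.88 on the right.

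Genes next to the 2 carboxylesterase clusters were read to see whether the differences extended along the chromosome. Of the 20 nearest tested neighbours, 5 on each side of each cluster, 1 was past the threshold (1.16% of all genes were) and the median log2 fold change was -0.02. It was Pdp2, which encodes a phosphatase that activates pyruvate dehydrogenase. Pdp2 is the farthest from the Ces2 cluster of the 5 tested neighbours on its side. Cdh16, Rrad, Gm33023 and Ciao2b lie between Pdp2 and the cluster, none of them past the threshold by edgeR. Pdp2 measured 34.1, 33.4 and 31.7 CPM in DKD and 65.6, 64.3 and 80.5 CPM in Control, and fell with a log2 fold change of -1.09 ± 0.12 (edgeR, adjusted p = 0.0192). It was not past the threshold without DKD replicate 1, DKD replicate 3, Control replicate 1 or Control replicate 2, or with the tubule marker covariate. None of the 10 neighbours of the Ces1 cluster, where Ces1e and Ces1g lie, was past it by edgeR. DESeq2, which called 13.7% of all genes, called Irx5 and Gm3272 among them, both higher in DKD. Over the 20 neighbours, 7 had groups apart higher in DKD and 3 lower, where the shares over all genes were 15.5 and 15.2%. Beside the Ces1 cluster these were Crnde, Irx5 and Gm3272, higher, and Nudt21 and Bbs2, lower.

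The genes whose pattern was most like that of each member were sought among 10965 genes with a mean of at least 5 CPM, by Pearson's r of log2 CPM over the 6 libraries. The libraries share their depth and group, and r over 6 points is given as a description. For Ces1g they were Fzd5 (r = 0.997) and Wbp4 (r = 0.996), and for Ces1e the nearest was Abhd14a (r = 0.999). Fzd5 followed the order of the libraries but over a narrow range, at 12.4, 12.1 and 11.7 CPM in DKD and 16.3, 17.1 and 15.8 CPM in Control. Abhd14a spanned more, at 25.1, 21.8 and 17.6 CPM in DKD and 38.2, 40.5 and 58.1 CPM in Control. For Ces1f the nearest were Pdxdc1 and Ugt2b38 (r = 0.997 each), for Ces1d Ttc36 (0.994) and Nadsyn1 (0.987), and for Ces2b Kdelr1 and Rmdn3 (0.995 each). For Ces2c they were Creld2 (0.994) and Arf1 (0.991), and for Ces2e Zc3hav1 (0.997) and Pik3ip1 (0.995). As many as 326 genes had an r over 0.95 with Ces1e and 135 with Ces1g, so the genes named stand at the head of long lists.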

How the data were processed

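Per the labels' protocols, poly(A) RNA went into strand-marked (dUTP) libraries that were read from both ends, 150 bases each. fastp, HISAT2, StringTie, edgeR and build GRCm39 are listed in the submitters' processing notes; versions, annotation release and strand setting were not given in the sources used here. Raw whole-number counts per gene were deposited. Values of 4 (6267 times) and 8 (2929) stood out against 3 (3129), 5 (1993), 7 (1784) and 9 (1305), so the counts may derive from coverage.

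Symbols and gene models came from an annotation on GRCm38, the preceding build, so positions are printed for the upstream windows only; 55141 identifiers matched and 260 did not. Upstream sequences came from RefSeq on GRCm38.p6.

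Genes kept by filterByExpr (minimum count 10) were tested with edgeR 4.0.16 in R 4.3.3, quasi-likelihood, TMM factors, group as the only term, Benjamini-Hochberg adjustment over all genes tested. The biological coefficient of variation was 33.2%. Log2 CPM used a prior count of 2. The procedure was tested on simulated data. Alternatives were DESeq2 1.42.0, limma 3.58.1 with voom, other scaling factors, filters, thresholds and dispersion, a tubule marker covariate, a replicate block and leaving out each library.

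The members and lists were chosen with earlier results of these data known. Named are all members, the other tested carboxylesterases, up to 4 genes past the threshold per list by smallest p, the neighbours past it, and 2 genes most like each tested member in pattern, of which 1 is not reported here.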

Additional observations from a re-analysis of the deposited data

How the results depend on the processing

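The log2 fold change of Ces1g kept its sign in all 16 alternatives, from -5.19 to -4.52, and lost its call with the replicate block, without Control replicate 1 and at an adjusted p under 0.01. That of Ces1e kept its sign in all 16, from -1.84 to -0.88, and passed with DESeq2, the filter of at least 1 CPM in 3 libraries, library totals and without Control replicate 3. With the tubule marker covariate the sign turned to 0.443 for Ces1d, 0.275 for Ces1f, 0.407 for Ces2b, 0.425 for Ces2c and -0.259 for Ces2e, and without Control replicate 3 to 0.18 for Ces1d and 0.23 for Ces2c. With 1 library left out in turn, these 2 ranged from -0.287 to 0.18 and from -0.407 to 0.23. The covariate did not overlap between the groups, so the covariate fit parts marker level from group only through the few libraries within each group. The cause was not tested. Replicate numbers in the titles did not pair the samples: deviations of same-numbered libraries correlated at -0.183, 0.0663 and -0.224. The fit with the numbers as a replicate block gave 0 calls over all genes and hence 0 among the members, the lipid hydrolases and esterases, the regulators and the cluster neighbours.

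Among all genes tested, 228 were past the threshold. The count was 2483 with DESeq2, 516 with the filter of at least 1 CPM, 56 with no filter, 47 with the covariate, 1478 at an adjusted p under 0.10 and 1 at an adjusted p under 0.01. Leaving out 1 library gave 1 (without Control replicate 1) to 386 (without Control replicate 3). Library totals gave 275, split into 101 higher and 174 lower, and moved the median of all genes to -0.13. Among the members the count was 1; it was 2 with DESeq2, the 1 CPM filter, library totals and an adjusted p under 0.10, 0 under 0.01, and 0 to 2 with a library left out. Among the lipid hydrolases and esterases it was 2; it was 8 with DESeq2, 4 with the 1 CPM filter, 1 with library totals (Lipa, lower), 1 with limma-voom, 1 with upper quartile factors, 0 with no filter, 0 with the covariate, 6 at 0.10, 0 at 0.01, and 0 to 2 with a library left out. Among the regulators it was 2; it was 9 with DESeq2, 4 with the 1 CPM filter, 4 with library totals, 0 with no filter, 1 with the covariate (Nfil3, and neither Cebpb nor Nr3c1), 7 at 0.10, 0 at 0.01, and 0 to 3 with a library left out. Among the neighbours it was 1; it was 4 with DESeq2, 0 with the covariate, 3 at 0.10, 0 at 0.01, and 0 to 1 with a library left out. The other carboxylesterase genes had 0 calls in every setting run.

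The members' share of the counts differed by -0.0495 percentage points (DKD minus Control), between -0.0659 and -0.0262 with a library left out, and -0.0473 without mitochondrially encoded genes. Without those genes the groups overlapped, with DKD replicate 1 at 0.1419% and Control replicate 1 at 0.1413%. Adding Ces2c and Ces2d-ps together was chosen after seeing the data. With 3 libraries a group and few counts for Ces2a, Ces1a, Ces1c, Ces2f and Ces3a, depth limits what can be said of those genes.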
